A study of Rattus norvegicus with 20 samples.

Results

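The genes described here make, package, take up and break down dopamine, together with calcyon, a neuronal protein first described as a partner of the D1 dopamine receptor. They were 8 genes chosen by symbol (Th, Gch1, Ddc, Slc18a2, Slc6a3, Maoa, Maob and Caly) out of 14217 named on the array, and 13 probe sets named 1 of them alone. RNA came from the shell of the nucleus accumbens of alcohol-preferring (P) rats, a line selectively bred for high voluntary ethanol drinking. The ethanol group (10 animals) had access to solutions of 15 and 30% ethanol while adolescent, in a binge-like pattern, and the water group (10 animals) was given water and no ethanol. Both groups were P rats, each animal gave 1 array, and the labels read here name no sex or age at collection. Values were RMA values on the log2 scale, in which a difference of 1 is a doubling, and the number of arrays limits the precision.

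Dopamine is made from tyrosine by tyrosine hydroxylase (Th), which needs tetrahydrobiopterin made by GTP cyclohydrolase (Gch1), and then by aromatic amino acid decarboxylase (Ddc). The vesicular transporter VMAT2 (Slc18a2) loads it into vesicles, the plasma membrane transporter DAT (Slc6a3) takes it back up, and the monoamine oxidases (Maoa, Maob) degrade it. The accumbens shell receives dopamine fibres whose cell bodies lie in the midbrain. These neurons thus make most of their mRNA of the synthesis and transport genes outside the dissected tissue. Monoamine oxidases and calcyon are also made by cells within it. No other region was measured here.

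No member passed the test of a difference between ethanol and water animals. Of the 13 probe sets, 6 were dim, meaning that their mean over all arrays was below 6.65, a level under which 33.3% of probe sets lay, and 7 probe sets of 6 genes were tested. Th and Gch1 had dim probe sets only. Of the 7 tested, 0 passed the threshold (limma, Benjamini-Hochberg adjusted p under 0.05 over 20695 probe sets), against 0.0966% of all probe sets. An unadjusted p under 0.05 was found for 1 of 7, against 12.1% of all. Without the filter on dim probe sets 0 of 13 passed, against 0.0709%, and 3 of 13 had an unadjusted p under 0.05, against 10.6%. Differences of the 7 tested probe sets ran from -0.09 to 0.11, and their 95% intervals lay within -0.26 to 0.22. Changes beyond 1.20-fold in either direction thus lie outside each of these 7 intervals, on the scale of the deposited values.

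**Figure D1:**
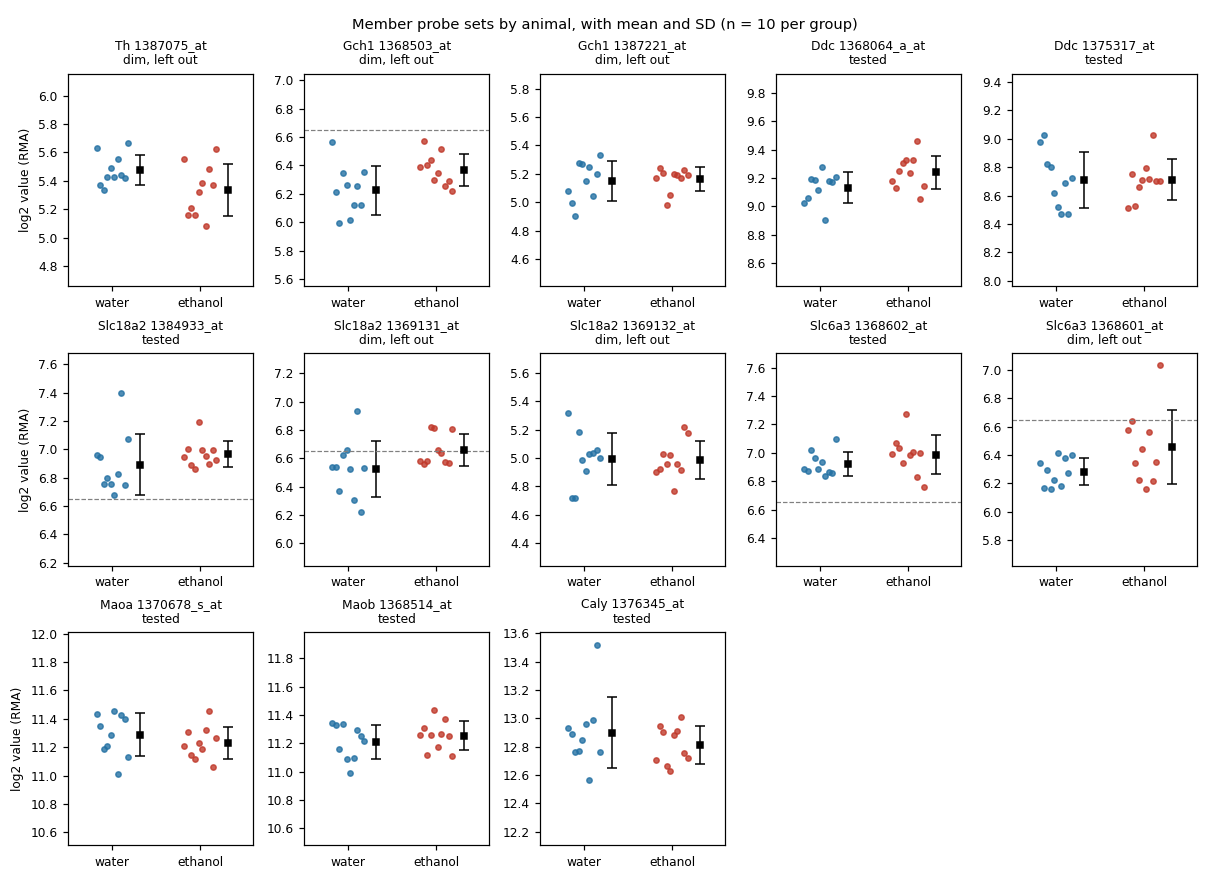
Log2 value of each of the 13 member probe sets (vertical axes, each spanning 1.5 log2 units) in water and ethanol animals; points are animals, black squares with bars are the mean and SD of 10 animals, and the dashed line is the level of 6.65 below which a mean was called dim. Ethanol and water values overlap in every panel, and Caly of water animal 20 (13.52) and Slc6a3 1368601_at of ethanol animal 10 (7.03) stand above the rest of their groups.

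The promoters of Th and Slc18a2 are shown because these genes of the dopamine neuron, dim or near the dim level here, share a sequence element. RefSeq (GRCr8) windows of 250 bases before to 50 after an annotated start were found for all 8 members, 11 windows in all. The palindromic cAMP response element TGACGTCA, in capitals below, was found in 2 of the 11 windows, against 1.83% of 33469 promoter windows of the same length. The Th stretch is chr1:207508270-207508297 on the minus strand, and the Slc18a2 stretch is chr1:268399959-268399986 on the plus strand.
Th: agaggggcttTGACGTCAgcctggcctt
Slc18a2: gtgctatccgTGACGTCAgagccggact

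An AP-1 motif (TGANTCA, searched on both strands, none overlapping the element above) was found in 2 member windows, of Th and Ddc, against 7.33% of all windows. The Th stretch that holds it lies at chr1:207508431-207508458 on the minus strand, and the Ddc stretch at chr14:90682929-90682956 on the minus strand, before the farthest upstream of its annotated starts. Matching letters are a description and do not show that a factor binds.
Th: gggctgagggTGATTCAgaggcaggtgc
Ddc: tggcttgttgTGAATCAgtctcactggg

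Th, the rate-limiting enzyme, was dim in every animal. Its single probe set lay between 5.33 and 5.66 in water (median 5.44) and between 5.08 and 5.62 in ethanol (median 5.35). The groups overlapped, although 5 of 10 ethanol animals lay below the lowest water animal and 7 of 10 below the water mean. The difference was -0.14 (95% interval -0.28 to -0.0065) in the fit without the filter, and it did not pass (unadjusted p = 0.0407, adjusted p = 0.46).

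Gch1, which limits tetrahydrobiopterin supply, was dim on both probe sets, with all 20 animals below 6.65. The brighter, 1368503_at, ran from 5.99 to 6.56 in water (median 6.24) and from 6.22 to 6.57 in ethanol (median 6.37), and 9 of 10 ethanol animals lay above the water mean. Its difference of 0.15 (interval 0.02 to 0.28) did not pass without the filter (unadjusted p = 0.03, adjusted p = 0.439). The other probe set, 1387221_at, differed by 0.01 (adjusted p = 0.94), and the pair correlated weakly over the 20 animals once group means were taken off (r = 0.21, rho = 0.27, permutation p = 0.439 and 0.278, adjusted over 6 pairs of probe sets 0.694 and 0.564).

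Ddc was the one synthesis enzyme of the members above the dim level. Probe set 1368064_a_at lay between 8.90 and 9.28 in water (median 9.18) and between 9.05 and 9.46 in ethanol (median 9.24), and 4 of 10 ethanol animals exceeded every water animal. At 9.24 ± 0.12 against 9.13 ± 0.11 (SD, n = 10 each) the difference was 0.11 ± 0.05 (SE), or 1.08-fold, the lowest p among the tested members, and it did not pass (unadjusted p = 0.0473, adjusted p = 0.407). The other tested Ddc probe set, 1375317_at, had a difference of -0.0006 (interval -0.16 to 0.15, adjusted p = 0.998). Its highest water values, 9.03 and 8.98, came from animals 13 and 12, neither of which was high on the first probe set (9.06 and 9.02). The Ddc probe sets correlated weakly (r = 0.14, rho = 0.15, permutation p = 0.552 and 0.533, adjusted 0.694 and 0.564), and their mean differed by 0.05 (adjusted p = 0.662). The 3' minus 5' value of the control probe sets for actin and Gapdh, a measure of RNA integrity, was higher in water (1.40 ± 0.21) than in ethanol (1.21 ± 0.12, SD, n = 10 each), and with it in the fit 1368064_a_at differed by 0.07 (adjusted p = 0.777).

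Slc18a2, the vesicular transporter, had 3 probe sets, 2 of them dim. The tested one, 1384933_at, was just above the dim level, from 6.68 to 7.39 in water (median 6.81) and from 6.86 to 7.20 in ethanol (median 6.95). Water animal 19 held the highest value of all, and ethanol animal 5 the next. The difference was 0.07 (interval -0.07 to 0.22, adjusted p = 0.669), 0.13 without water animal 19 (adjusted p = 0.427), and 0.02 with the 3' minus 5' value in the fit (adjusted p = 0.95). Dim 1369131_at also had its highest value in water animal 19 (6.93), all 10 ethanol animals lay above its water mean of 6.53, and it differed by 0.14 (interval -0.0085 to 0.28, adjusted p = 0.5 without the filter). With the 3' minus 5' value in the fit that difference was 0.07 (adjusted p = 0.846). These 2 probe sets correlated at r = 0.58 and rho = 0.30 (permutation p = 0.0285 and 0.214, adjusted 0.171 and 0.564). Without water animal 19 and ethanol animal 5 r was 0.06, so the relation rests on them. The dimmest, 1369132_at, differed by -0.0078 (adjusted p = 0.979).

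Slc6a3, the dopamine transporter, was represented by 1368602_at, from 6.83 to 7.10 in water (median 6.89) and from 6.76 to 7.27 in ethanol (median 6.997). The difference of 0.07 (interval -0.04 to 0.17) did not pass (adjusted p = 0.598), and ethanol animals spread above as well as below the water range. The dim probe set 1368601_at ran from 6.16 to 6.41 in water and from 6.16 to 7.03 in ethanol, with an SD of 0.26 in ethanol against 0.10 in water. On it 5 of 10 ethanol animals exceeded every water animal. Its difference of 0.17 (interval -0.0008 to 0.34) was the largest of the 13 and did not pass (limma without the filter, unadjusted p = 0.051, adjusted p = 0.475). The medians were 6.40 in ethanol and 6.29 in water. Ethanol animal 10 stood at 7.03, above the next ethanol animal at 6.64, and the difference without it was not tested. Ethanol animal 10, highest on the dim probe set, was the lowest of all animals on 1368602_at (6.76), and the Slc6a3 pair did not pass a test of correlation (r = -0.11, rho = 0.18, permutation p = 0.694 and 0.475, adjusted 0.694 and 0.564).

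**Figure D2:**
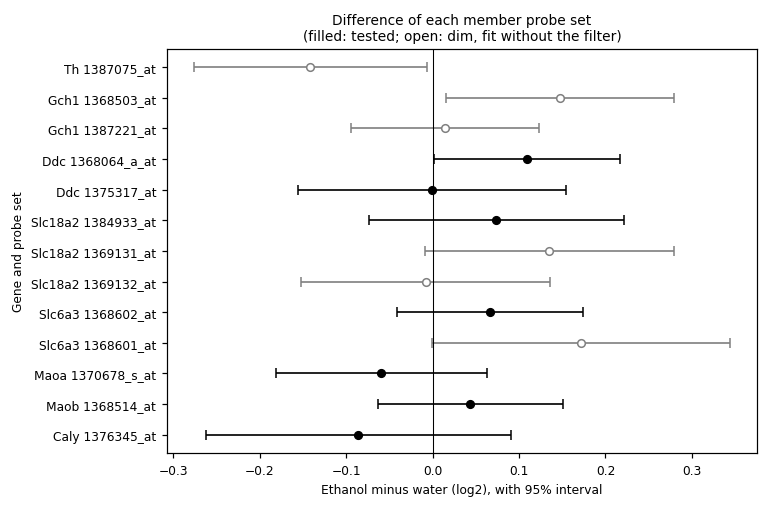
Ethanol minus water on the log2 scale (horizontal axis) for each member probe set, with its 95% interval from limma; filled points were tested and open points are dim probe sets from the fit without the filter. Differences run from -0.14 for Th to 0.17 for Slc6a3 1368601_at, and no adjusted p is below 0.407.

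Other genes that mark monoamine cell bodies were mostly dim as well. Of 23 such genes listed, 18 had a probe set naming them alone and 13 of these were dim, among them Pitx3, a transcription factor of midbrain dopamine neurons, Slc6a4, the serotonin transporter, Dbh, the noradrenaline-synthesising enzyme, and Chrna6, a nicotinic receptor subunit. The 5 that were not dim were Nr4a2, Aldh1a1, Ret, Sncg and Slc10a4, and 0 of them passed. By contrast 23 of 23 measured markers of medium spiny neurons, which carry the output of the striatum, were above the dim level.

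Maoa and Maob encode enzymes of the outer mitochondrial membrane, neighbours on the X chromosome on opposite strands. Their upstream sequences are shown together with that of Caly, because Caly followed Maoa across animals and Maob is the paralog of Maoa. Each is the stretch of 250 bases before an annotated start (RefSeq, GRCr8), with GC boxes (GGGCGG on either strand) in capitals. The stretches lie at chrX:8681373-8681622 on the minus strand, chrX:8490155-8490404 on the plus strand and chr1:204303507-204303756 on the minus strand. For Caly, which has 2 annotated starts, the farther upstream one was used, and the window of the other start also holds a GC box. The printed stretches hold 4 such boxes for Maoa, 2 for Maob and 1 for Caly, and 33.1% of all promoter windows hold at least 1. Of the 11 member windows 7 hold a GC box, among them those of Gch1, Slc18a2 and Slc6a3. The boxes are thus not particular to Maoa and Caly.
Maoa: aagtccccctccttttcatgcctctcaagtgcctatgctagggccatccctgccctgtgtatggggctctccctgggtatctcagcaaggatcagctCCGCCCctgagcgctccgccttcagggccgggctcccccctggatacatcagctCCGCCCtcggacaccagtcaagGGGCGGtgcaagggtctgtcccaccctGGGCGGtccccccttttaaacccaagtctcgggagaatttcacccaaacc
Maob: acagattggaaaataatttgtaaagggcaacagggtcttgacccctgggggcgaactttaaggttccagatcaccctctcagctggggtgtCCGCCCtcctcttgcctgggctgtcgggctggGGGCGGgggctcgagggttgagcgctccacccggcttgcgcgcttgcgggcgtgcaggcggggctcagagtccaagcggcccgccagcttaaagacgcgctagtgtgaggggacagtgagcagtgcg
Caly: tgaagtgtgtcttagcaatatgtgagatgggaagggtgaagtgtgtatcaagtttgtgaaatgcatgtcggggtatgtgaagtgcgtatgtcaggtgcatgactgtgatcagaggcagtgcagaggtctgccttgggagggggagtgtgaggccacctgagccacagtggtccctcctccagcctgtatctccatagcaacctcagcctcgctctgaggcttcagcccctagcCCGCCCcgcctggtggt

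Maoa, which prefers serotonin and noradrenaline but also degrades dopamine, lay between 11.01 and 11.45 in water (median 11.32) and between 11.06 and 11.45 in ethanol (median 11.22). The ranges nearly coincided, and the difference was -0.06 (interval -0.18 to 0.06, adjusted p = 0.676), and 0.0006 without water animals 12, 17 and 20 (adjusted p = 0.999). The suffix of its probe set, 1370678_s_at, marks probes that can match more than 1 transcript, which was not tested here. Maob, the form found in astrocytes and serotonin neurons, lay between 10.99 and 11.34 in water (median 11.23) and between 11.11 and 11.43 in ethanol (median 11.26). The Maob difference was 0.04 (interval -0.06 to 0.15, adjusted p = 0.729), so the intervals of both oxidases lie within -0.18 to 0.15, and a fit that held the 3' minus 5' value gave -0.0057 for Maob (adjusted p = 0.984).

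Caly was at 12.81 ± 0.13 in ethanol and 12.90 ± 0.25 in water (SD, n = 10 each). Ethanol animals ran from 12.63 to 13.01 (median 12.82) and water animals from 12.57 to 13.52 (median 12.87), and water animal 20 stood far above the next water animal, at 12.99. The difference was -0.09 (interval -0.26 to 0.09, adjusted p = 0.676), -0.02 without water animal 20 (adjusted p = 0.94), and 0.02 without water animals 17, 19 and 20 (adjusted p = 0.916). A fit that held the 3' minus 5' value gave -0.14 (adjusted p = 0.745).

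Among the 15 pairs of the 6 tested members, 1 pair passed a test of correlation across animals, Maoa and Caly. With group means taken off, r was 0.65 and rho 0.70 over 20 animals (permutation p = 0.00305 and 0.00067, adjusted over the 15 pairs 0.0458 and 0.01). Within ethanol r was 0.58 and within water 0.69, and without the animals farthest from the Maoa median (water 18 and ethanol 8) it was 0.51. Maoa with Maob gave r = 0.26 and rho = 0.32 (permutation p = 0.294 and 0.183, adjusted 0.49 and 0.705), and Maob with Slc18a2 r = 0.50 and rho = 0.53 (permutation p = 0.0339 and 0.0218, adjusted 0.221 and 0.164). Slc18a2 and Slc6a3, the tested transporters, had r = 0.77 within ethanol, where animal 5 was highest on both, and r = -0.003 within water (over all 20, r = 0.27 and rho = 0.20, permutation p = 0.177 and 0.374, adjusted 0.49 and 0.729).

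Caly and Maoa were high where the medium spiny neuron markers were low. Water animals 17, 19 and 20 had list means of 11.26 to 11.78, below the 12.02 to 12.66 of all other animals, and their oligodendrocyte list means (11.53 to 11.67) were at the top of the range of the others (10.74 to 11.66). Caly against the medium spiny neuron mean gave r = -0.86 and rho = -0.87 (permutation p = 1e-05 for both, the smallest that the permutations can give, adjusted over 24 relations 0.00024), r = -0.84 within ethanol, -0.87 within water and -0.86 without water animals 17, 19 and 20. For Maoa the values were r = -0.71 and rho = -0.71 (permutation p = 0.00107 and 0.00081, adjusted p for r = 0.0128), -0.72 within ethanol, -0.74 within water and -0.75 without those 3 animals. Against the oligodendrocyte mean Maoa had r = 0.65 and Caly r = 0.61 (rho = 0.62 and 0.69, permutation p for r = 0.00351 and 0.00366, adjusted 0.022 for both). Maob gave r = 0.11 with the medium spiny neuron mean (rho = 0.09, permutation p = 0.684 and 0.702) and r = 0.33 with the astrocyte mean (rho = 0.29, permutation p = 0.183 and 0.229), and neither passed. With the astrocyte mean, r of Maob was 0.77 within ethanol, 0.07 within water and 0.61 without water animals 17, 19 and 20. With the medium spiny neuron mean these values were -0.008, 0.16 and -0.11. Whether the groups differ in them was not tested. Whether the correlations of Maob and Maoa differ was not tested either. In such bulk tissue fewer cells of a type and less RNA per cell cannot be told apart, and the part of cell makeup in the Caly and Maoa levels was not tested.

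**Figure D3:**
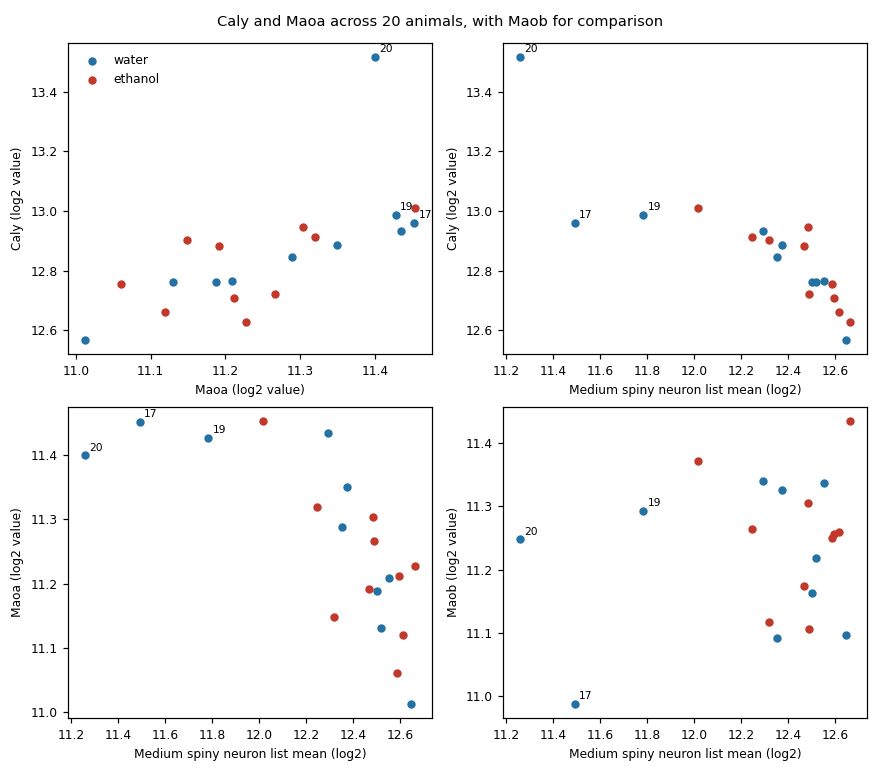
Log2 values of 20 animals (blue water, red ethanol): Caly against Maoa, and Caly, Maoa and Maob each against the mean log2 value of 23 medium spiny neuron markers; water animals 17, 19 and 20 are numbered. Caly and Maoa fall as the marker mean rises in both groups (r = -0.86 and -0.71 after taking off group means), and r is 0.11 for Maob.

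The genes whose values were most like each member, by Pearson r over 20 animals after taking off group means, were sought among 10661 other named genes. Closest to Caly were Nrsn2 (r = 0.94), a neuronal vesicle protein, Gnai2 (r = 0.93), an inhibitory G-protein subunit, and Pcsk1n (r = 0.93), the propeptide convertase inhibitor proSAAS. Maoa was closest to Rab10 (r = 0.89), a trafficking GTPase, Dennd10 (r = 0.87) and Pdgfra (r = 0.87), the receptor that marks oligodendrocyte precursors. Maob was closest to the calcium-binding proteins S100a13 (r = 0.83) and S100a16 (r = 0.82) and the peroxiredoxin Prdx4 (r = 0.82). Ddc was closest to Rap1b (r = 0.80), Kdelr2 (r = 0.78) and Naa35 (r = 0.78). The leading genes of the near-dim transporters were Phpt1 (r = 0.78), Slc30a3 (r = 0.65) and Trmt5 (r = 0.64) for Slc18a2, and Actr8 (r = 0.76), Slc19a1 (r = 0.70) and Birc7 (r = 0.70) for Slc6a3. For the first gene named for each member rho was 0.81 (Caly), 0.87 (Maoa), 0.82 (Maob), 0.78 (Ddc), 0.59 (Slc18a2) and 0.53 (Slc6a3). Slc30a3 followed Slc18a2 in water (r = 0.91), where animal 19 held the highest Slc18a2 value, and not in ethanol (r = 0.07). That difference was not tested. These are the highest of many correlations, so no test is given.

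No other gene of the pathway passed either. Of 66 genes on the 5 pathway lists, members included, 49 were tested. Of these 0 rose and 0 fell (limma, adjusted p under 0.05), against 0.0931% of the 10746 genes tested. An unadjusted p under 0.05 was found for 3 (Ddc, Ywhaz and Rgs9), which is 6.12% against 10% of all genes. The median difference of the 49 was -0.02, beside 0.00016 over all genes. Without the members 43 genes were tested, 0 passed, 2 had an unadjusted p under 0.05 (4.65%) and the median was -0.02. On the synthesis list (8 tested, median 0.01) Ywhaz, a 14-3-3 protein of the kind that binds phosphorylated tyrosine hydroxylase, differed by 0.12 (adjusted p = 0.327). On the tetrahydrobiopterin list (7 tested, 6 with a negative difference, median -0.07) Qdpr, which regenerates the cofactor, differed by -0.13 (adjusted p = 0.607) and Pcbd2, a pterin dehydratase, by -0.07 (adjusted p = 0.452).

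On the transport list (8 tested, 4 dim, median 0.07) Slc18a1, the vesicular transporter best known from endocrine cells, differed by 0.17 (adjusted p = 0.413) and beta-synuclein, Sncb, by -0.23 (adjusted p = 0.584). On the breakdown list (10 tested, median -0.03) the sulfotransferase Sult1a1 differed by -0.25 (adjusted p = 0.469) and the aldehyde dehydrogenase Aldh3a2 by -0.08 (adjusted p = 0.506). Among receptors and partners (16 tested, 3 dim, median -0.02) Rgs9, which speeds the shut-off of D2 signalling, differed by 0.35 (adjusted p = 0.394), the D1 receptor Drd1 by 0.29 (adjusted p = 0.46) and the D2 receptor Drd2 by 0.27 (adjusted p = 0.487), all 3 of which are also medium spiny neuron markers (Drd2 was named after its value was seen). Across that marker list 23 of 23 tested genes had a positive difference (median 0.26) and 0 passed limma's test (2 at an unadjusted p under 0.05), while 18 of 18 oligodendrocyte markers had a negative difference (median -0.15) and 0 passed (1 unadjusted). The part of these marker shifts in the receptor values was not tested. Water animals 17, 19 and 20 had medium spiny neuron list means of 11.26 to 11.78, against 12.02 to 12.66 in all other animals. Their oligodendrocyte list means were 11.53 to 11.67, against 10.74 to 11.66 in the others. The other water animals ran from 12.295 to 12.646 on the medium spiny neuron list, about the ethanol mean of 12.449. On the oligodendrocyte list the other water animals ran from 10.736 to 11.426, about the ethanol mean of 11.061. The group differences of both lists thus rest largely on animals 17, 19 and 20, and marker differences without these 3 animals were not tested. The other receptors Drd3, Drd4 and Drd5 were dim.

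**Figure D4:**
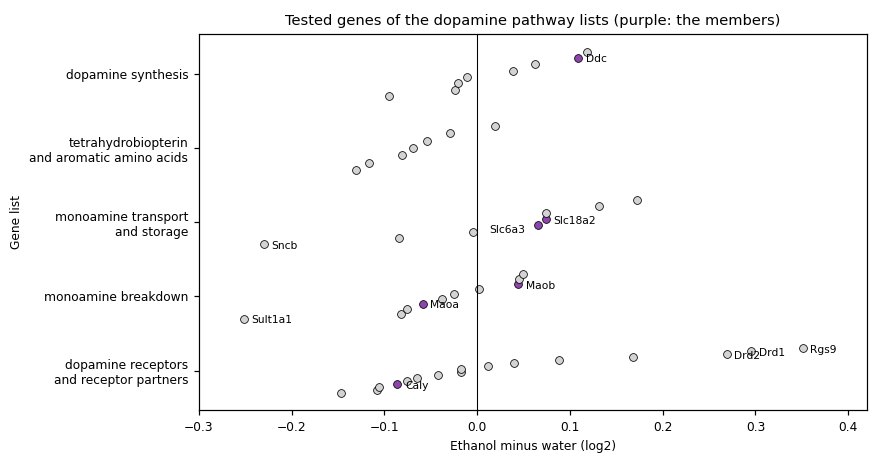
Ethanol minus water on the log2 scale (horizontal axis) for each tested gene of the 5 pathway lists (rows), 1 probe set per gene; purple points are the members. The 6 tested members lie between -0.09 and 0.11, inside the range of the other genes, from -0.25 for Sult1a1 to 0.35 for Rgs9. Th and Gch1, which were dim, are not plotted.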

How the data were processed

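RNA of 20 rats was measured on 1-colour Affymetrix arrays after labelling from the 3' end, per the labels' protocols, so values depend on RNA integrity. The deposited values are log2, made by the authors with RMA per the submitters' processing notes, which corrects background, normalizes between arrays and shrinks differences of dim probe sets. Which software version and chip definition were behind it was not given in the sources used here. Array medians were 7.93 to 7.98, and 0 array pairs were identical.

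Of 31099 probe sets, 20826 named 1 gene, through the platform's gene table (symbols updated through RefSeq GRCr8, 0 changed). Controls (57) and the dimmest 33.3% were left out, leaving 20695. limma 3.58.1 (R 4.3.3, lmFit and eBayes, two-sided) compared ethanol with water, with Benjamini-Hochberg adjustment. A gene was represented by its brightest probe set. Correlations used 100000 permutations within groups. The fit was tested on simulated data with independent noise and the same SD in both groups. In the real data genes were correlated, and 81.3% of tested probe sets had the larger SD in water. The simulation thus does not show how the fit behaves under those conditions.

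Members, lists and alternatives were chosen with earlier results of these data known. Named genes were all members, the 2 genes of smallest p per pathway list, any gene past the threshold, and the 3 genes most correlated with each tested member. Other marker genes were named as examples after their values were seen. Animal 11 was not analysed here.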

Additional observations from a re-analysis of the deposited data

Results flagged for a closer look

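Among 26 groups of 10 animals (13 member probe sets, ethanol and water), 2 held an animal set apart from the others by a gap that exceeded Dixon's 95% critical share of the range, which chance gives in about 1 of 20 groups. Caly of water animal 20 was 13.52, with the next water animal at 12.99. The same animal had the lowest medium spiny neuron list mean (11.26) and the highest astrocyte list mean (11.94). Slc18a2 1384933_at of ethanol animal 5 was 7.20, with the next ethanol animal at 7.004, and stayed below water animal 19 (7.39). The part of these list means in either value was not tested.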

How the results depend on the processing

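No member probe set and no pathway gene passed under any of 15 alternatives (13 listed with the design and 2 chosen after seeing the data, without water animal 19 or 20). The lowest adjusted p of a member was 0.334, with the medium spiny neuron list as a term. Of 169 recomputed differences 158 kept their direction and 11, all small, turned. With quantile normalization Gch1 1387221_at was -0.0028 and Ddc 1375317_at 0.0025. With array weights Slc18a2 1369132_at was 0.0034. Without water animals 17, 19 and 20 Caly was 0.0239. Without water animals 12, 17 and 20 Slc18a2 1369132_at was 0.0343, Maoa 0.0006 and Caly 0.0163. With the medium spiny neuron list as a term Maoa was 0.0093 and Caly 0.0391. With a term for the 3' minus 5' value Gch1 1387221_at was -0.0233 and Maob -0.0057. The cause was not tested. Ddc 1368064_a_at stayed between 0.07 and 0.15, and the mean over the Ddc probe sets differed by 0.05. Dim signal limits Th, Gch1 and the dim transporter probe sets, whose values lie where RMA shrinks differences.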
